A study of Mus musculus with 6 samples.

Results

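The CITED transcriptional co-regulators and the acetyltransferases they bind were examined in whole ovaries of mice with a truncated Bnc1 gene. The set holds 5 genes of the 44788 listed in the count table: Cited1, Cited2 and Cited4, which make up the Cited family in the table, and Crebbp and Ep300, which encode CBP and p300. These genes were chosen from values of the same genotype contrast reported below, so their levels and fold changes are a description and carry no p-value. All 5 passed the filter on low counts that left 19423 genes for testing.

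RNA-seq compared ovaries of 2 genotypes on a C57BL/6 J background at an age of 8 weeks, with 3 libraries from wild-type Bnc1+/+ females (numbered 1, 4 and 7) and 3 from homozygous Bnc1tr/tr females (numbered 1, 2 and 3). The Bnc1tr allele carries a small deletion in the gene for the zinc finger protein basonuclin 1, present in the germline and therefore in every cell type, which shifts the reading frame to a premature stop. Both genotypes came from matings of heterozygotes, and no other allele or agent was given for either group. The sources do not say whether a library holds 1 ovary, both ovaries or pooled animals, so the spread below is that between these 6 libraries. Bnc1 itself stood at 13.9, 13.4 and 13.1 CPM (counts scaled to the TMM-adjusted library size) in Bnc1+/+ and 18.7, 13.7 and 11.5 CPM in Bnc1tr/tr, and since the allele leaves most of the gene in place, its counts do not check the labels.

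CITED proteins do not bind DNA. Through an acidic tail they attach to CBP and p300, which acetylate histones and join DNA-bound factors to the transcription machinery; CITED proteins bring CBP and p300 to some factors, such as those of the AP-2 family, and keep them from others, such as the hypoxia-inducible factors (HIF). In the ovary CBP and p300 also serve CREB, a factor that acts downstream of gonadotropins and cyclic AMP, and Cited2 is known for its part in gonad development.

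The gene starts of the Cited genes that differed most between genotypes, and of Cited2 as the family member that did not, are shown so that their promoters can be compared by eye. Each run holds the 250 bases before the RefSeq start (GRCm38.p6), 5′ to 3′ on the strand of the gene. Capitals mark every match on either strand to 4 motifs. The first is TATAAA, the box bound by the TATA-binding protein. The second is CCAAT, a site of the factor NF-Y. The others are the forms of the core to which HIF binds, of which ACGTG is one and GCGTG the other.
Cited1, chrX:102252182-102252431, minus strand: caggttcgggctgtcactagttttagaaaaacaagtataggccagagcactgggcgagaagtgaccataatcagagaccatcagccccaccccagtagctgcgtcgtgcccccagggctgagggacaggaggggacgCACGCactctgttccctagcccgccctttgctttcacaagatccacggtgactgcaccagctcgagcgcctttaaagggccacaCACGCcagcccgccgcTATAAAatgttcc
Cited4, chr4:120666313-120666562, plus strand: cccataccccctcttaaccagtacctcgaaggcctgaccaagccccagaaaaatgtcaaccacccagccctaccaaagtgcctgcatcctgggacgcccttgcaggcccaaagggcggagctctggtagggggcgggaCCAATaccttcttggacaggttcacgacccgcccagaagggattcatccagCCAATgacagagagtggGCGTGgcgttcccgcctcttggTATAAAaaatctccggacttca
Cited2, chr10:17722978-17723227, plus strand: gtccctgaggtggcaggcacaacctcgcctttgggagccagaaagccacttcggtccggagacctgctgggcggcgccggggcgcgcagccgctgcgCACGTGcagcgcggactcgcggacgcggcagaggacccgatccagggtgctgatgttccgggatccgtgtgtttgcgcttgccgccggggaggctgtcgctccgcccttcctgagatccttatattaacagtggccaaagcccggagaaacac
The letters TATAAA began 13 bases before the Cited1 start and 22 bases before the Cited4 start and were missing from the Cited2 window. Only exact letters were searched, so similar stretches, such as tatatta near the end of the Cited2 window, are not marked. Of all 32851 windows of this length in the RefSeq table, 12.4% held TATAAA. Cited4 alone of these 3 windows held CCAAT, at 2 places, beside 33.8% of all windows. Cited2 held the HIF core at 1 place, where it can be read from both strands, and 16.6% of all windows held ACGTG on either strand. The other HIF core, GCGTG, found in 28.2% of all windows, was read from the opposite strand as CACGC at 2 places in Cited1 and from the gene's strand at 1 place in Cited4. None of the 3 windows held the full CREB element TGACGTCA (1.55% of all windows), AAGGTCA (4.08%), to which NR5A factors bind, or the AP-2 palindrome GCCNNNGGC (13.7%). RefSeq lists 3 starts for Cited1, and the counts per gene do not separate them. The window of the second Cited1 start held TATAAA farther out, at 115 bases, and also CCAAT and ACGTG once each, and that of the third held AAGGTCA and GCCNNNGGC once each. The Crebbp and Ep300 windows held none of the letters marked by capitals, and Crebbp held GCCNNNGGC at 2 places. A match describes letters in a window and says nothing of binding.

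Cited1, an X-linked co-regulator that acts with SMAD4 and oestrogen receptors, was the member with the largest difference. It lies on chromosome X at 102247381-102252181 on the minus strand (mm10; GENCODE M21), with 1754 exon bases. Its level was 51.1, 61.0 and 62.2 CPM in the 3 Bnc1+/+ ovaries and 15.1, 13.4 and 14.2 CPM in the 3 Bnc1tr/tr ovaries. The highest mutant ovary was far below the lowest wild-type ovary, and the mutant ovaries lay close together. The means were 58.1 ± 6.10 and 14.2 ± 0.824 CPM (SD, n = 3 each), a ratio of 4.08, and the fitted log2 fold change was -2.03 (SE 0.11). The counts behind these values ran from 1374 to 2018 in Bnc1+/+ and from 349 to 424 in Bnc1tr/tr.

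Cited4, which co-activates AP-2 factors and can hold CBP and p300 back from HIF, was also lower in the mutant ovaries. It is a gene without introns on chromosome 4 at 120666572-120667820 on the plus strand, with 1249 exon bases. It stood at 33.3, 33.7 and 37.8 CPM in Bnc1+/+ and at 7.68, 18.7 and 15.8 CPM in Bnc1tr/tr. The groups did not overlap, but unlike those of Cited1 the mutant values were spread widely: replicate 1 lay well below the other two. The SD was 40.6% of the mean in Bnc1tr/tr and 7.11% in Bnc1+/+, whereas for Cited1 it was 5.79% and 10.5%. The means were 34.9 ± 2.48 and 14.0 ± 5.70 CPM (SD, n = 3 each), a ratio of 2.49, with a log2 fold change of -1.32 (SE 0.28). Without Bnc1tr/tr replicate 1 the log2 fold change was -1.02, and over all 6 refits that each left out 1 ovary it ran from -1.58 to -1.02.

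Cited2, the widely expressed member that competes with HIF for p300, did not share the lower levels. It is encoded on chromosome 10 at 17723218-17725674 on the plus strand, in 1 exon block of 2457 bases. The 3 Bnc1+/+ ovaries had 133.7, 121.0 and 136.2 CPM and the 3 Bnc1tr/tr ovaries 113.7, 178.8 and 137.9 CPM. The mutant values enclosed the wild-type values on both sides. The log2 fold change was 0.14 (SE 0.16), and its sign rested on 1 ovary, being -0.05 without Bnc1tr/tr replicate 2.

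**Figure D1:**
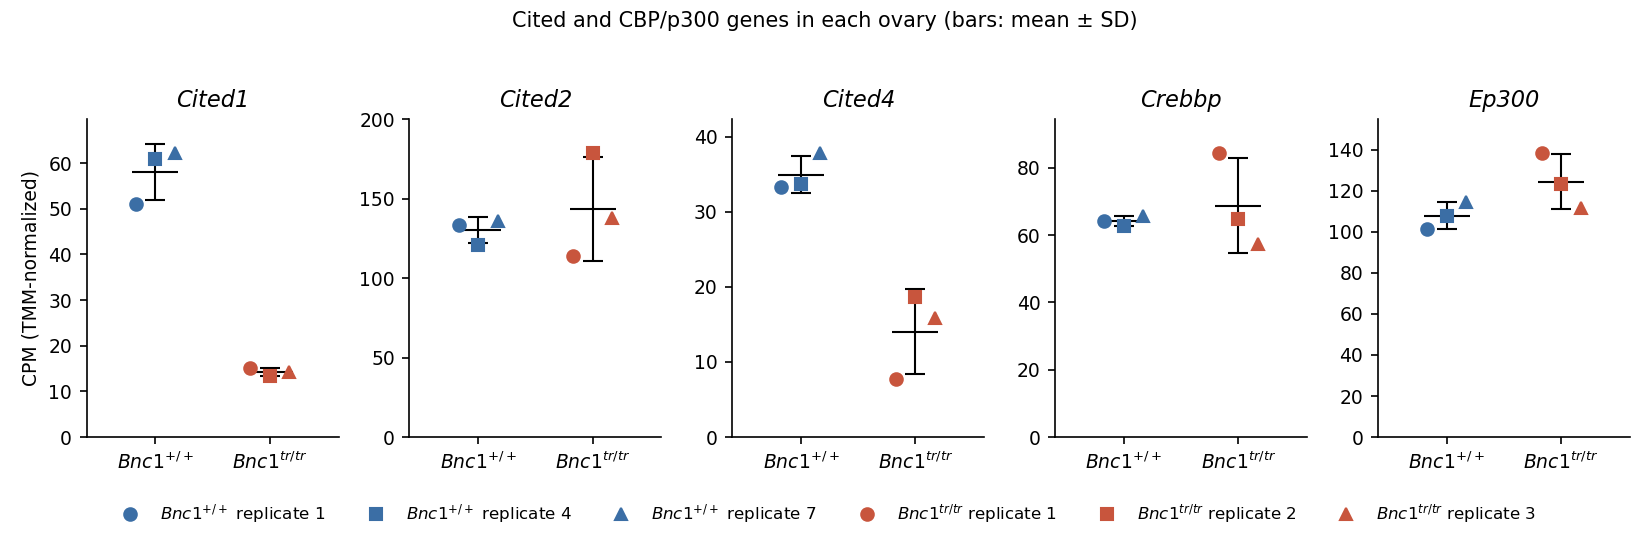
Level of each gene in CPM (y axis, from 0) in the 3 Bnc1+/+ (blue) and 3 Bnc1tr/tr ovaries (red), with 1 marker per ovary and the mean ± SD in black. The Cited1 and Cited4 values of the genotypes do not overlap, and those of Cited2, Crebbp and Ep300 do.

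Crebbp and Ep300 encode the acetyltransferases to which all 3 CITED proteins bind. Crebbp (chromosome 16, 4081328-4213997, minus strand, 13540 exon bases) was at 64.2, 62.9 and 65.8 CPM in Bnc1+/+ and at 84.4, 64.8 and 57.2 CPM in Bnc1tr/tr. The wild-type ovaries were nearly equal (SD 2.31% of the mean), while the mutant ovaries lay above, between and below them. Its log2 fold change was 0.10 (SE 0.14), turning to -0.08 without Bnc1tr/tr replicate 1.

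Ep300 (chromosome 15, 81585351-81652077, plus strand, 14273 exon bases) was at 101.2, 107.9 and 114.4 CPM in Bnc1+/+ and at 138.4, 123.3 and 111.5 CPM in Bnc1tr/tr. The lowest mutant ovary fell inside the wild-type range and the other two above it. The log2 fold change of Ep300 was 0.21 (SE 0.10), with 0.12 to 0.28 in the refits without 1 ovary. Bnc1tr/tr replicate 1 had the highest Crebbp and Ep300 values of the 6 ovaries together with the lowest Cited2 and Cited4 values.

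Thus 2 of the 5 genes, Cited1 and Cited4, passed the edgeR threshold in the direction of lower values in Bnc1tr/tr, beside 4.19% of all genes tested in that direction and 7.06% in either direction. The same 2 had values that did not overlap between the genotypes, as had 30.8% of all genes tested. Since the genes were picked from this contrast, nothing is read from these counts. Cited1 passed under all 12 alternative settings and Cited4 under 8 of 12. Cited4 missed the threshold in 4 of the 6 refits without 1 ovary (Bnc1+/+ replicates 1, 4 and 7 and Bnc1tr/tr replicate 3). All these settings refit the contrast from which the genes were picked, so the passes describe it and are no support.

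To compare levels between genes, CPM was divided by the exon length in kilobases, taken over all annotated transcripts of a gene. The lengths of the transcripts present in these ovaries were not known, so the order of close values can depend on this choice. In Bnc1+/+ ovaries Cited2 was highest at 53.0 ± 3.31 CPM per kb, followed by Cited1 at 33.1 ± 3.48, Cited4 at 28.0 ± 1.99, Ep300 at 7.55 ± 0.462 and Crebbp at 4.75 ± 0.110 CPM per kb (SD, n = 3). The neighbours Cited1 and Cited4 overlapped over the ovaries, at 29.1 to 35.5 and 26.7 to 30.3 CPM per kb, and no other neighbours in this order did. In Bnc1tr/tr ovaries Cited2 was again highest at 58.4 ± 13.4 CPM per kb and Crebbp lowest at 5.08 ± 1.04, and the 3 genes between them could not be ordered beyond their spread; the lowest Cited4 value, 6.15 CPM per kb, also lay below the highest Crebbp value, 6.23 CPM per kb. Cited4 stood there at 11.2 ± 4.56 CPM per kb, Ep300 at 8.72 ± 0.944 and Cited1 at 8.12 ± 0.470. By this measure Cited1 transcripts were more abundant per length than Ep300 transcripts in every wild-type ovary and in 1 of the 3 mutant ovaries.

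Within the Cited family, the share of Cited2 was 49.4%, 44.4% and 45.8% of the summed level per kb in the wild-type ovaries and 75.8%, 76.3% and 73.0% in the mutant ovaries. The share of Cited1 was 29.0% ± 2.45 in Bnc1+/+ and 10.9% ± 3.04 in Bnc1tr/tr, and that of Cited4 was 24.5% ± 0.417 and 14.1% ± 3.48 (SD, n = 3). The mutant ovaries resembled each other more in the share of Cited2 than in its level. Summed over the family, the level per kb was 110.2, 111.0 and 121.2 in wild-type ovaries and 61.0, 95.4 and 76.9 in mutant ovaries. Set against Crebbp and Ep300 together, the summed Cited level was 9.31, 9.10 and 9.41 times theirs in wild-type ovaries and 3.83, 7.11 and 6.38 times theirs in mutant ovaries.

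**Figure D2:**
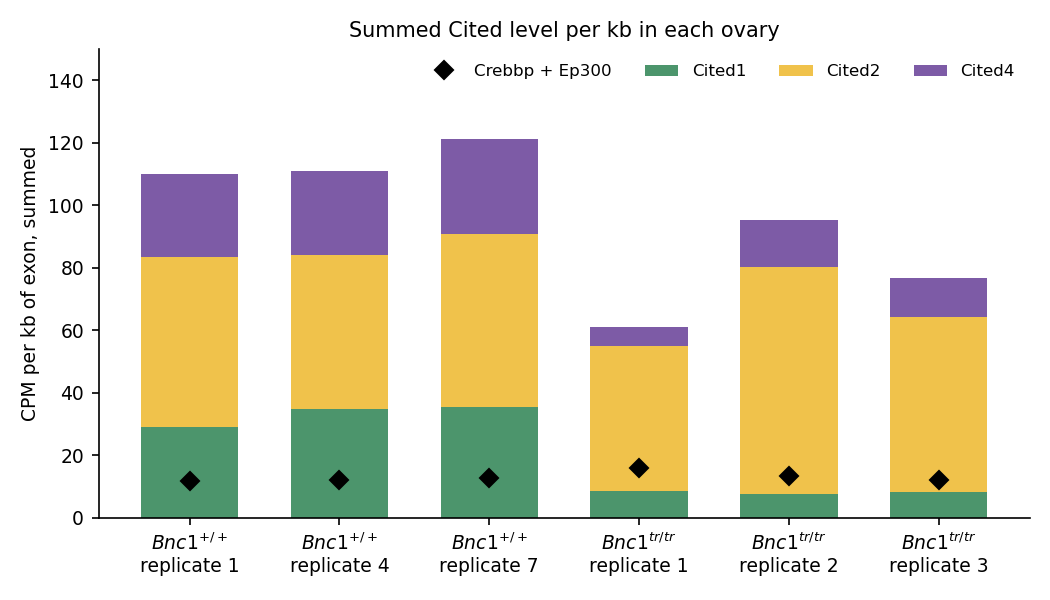
Stacked CPM per kb of exon for Cited1, Cited2 and Cited4 in each of the 6 ovaries (bars, from 0), with the sum of Crebbp and Ep300 as black diamonds. The bars reach 110.2 to 121.2 in Bnc1+/+ and 61.0 to 95.4 in Bnc1tr/tr, and the diamonds stay between 11.8 and 15.9.

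The genes whose profile over the 6 ovaries was most like that of each member were sought among 11409 genes with a mean of at least 10 CPM, by the root mean square (RMS) difference of centred log2 CPM. Among the 3 closest to Cited1 were Dusp1, a phosphatase of MAP kinases (RMS 0.12), and Scarb1, the receptor that takes up cholesterol from high-density lipoprotein (0.15). Closest to Cited4 were Prlr, the prolactin receptor (RMS 0.10), the isocitrate dehydrogenase gene Idh1 (0.10) and Acsl4, an acyl-CoA synthetase of polyunsaturated fatty acids (0.11). These 5 genes were lower in Bnc1tr/tr: Scarb1 was at 2574 CPM in Bnc1+/+ and 709 CPM in Bnc1tr/tr and Prlr at 346 and 126 CPM (group means, n = 3 each), and both are among the luteal markers listed below. Cited4 ranked 159th in likeness to Cited1 (RMS 0.54), and Cited1 ranked 487th in likeness to Cited4.

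Cited2 was most like Acsf2, another acyl-CoA synthetase (RMS 0.03), Asb2 (0.05) and Ccdc142 (0.05). Crebbp was most like Plekha2 (0.04), Rbpj, the DNA-binding effector of Notch (0.04), and Crlf3 (0.05). Among the 3 closest to Ep300 were Tsc1, an inhibitor of growth signalling through mTOR (RMS 0.03), and Spen, a co-repressor (0.03). Crebbp and Ep300 followed each other at an RMS of 0.11, below that of any pair of Cited genes, of which Cited1 and Cited4 were the closest. By rank, however, Ep300 was only 470th in likeness to Crebbp, and Crebbp 1058th in likeness to Ep300. An RMS is small between any genes that vary little over the ovaries, so it does not order these pairs by likeness. These likenesses describe 6 points that share their libraries and depth and carry no test.

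Cell type markers were read from the same fit, and their lists were chosen with earlier results of these data known. Counts of markers past the threshold are therefore a description. Of 10 markers of the corpus luteum, the gland that forms from the follicle after ovulation, 8 passed the edgeR threshold with lower values in Bnc1tr/tr. Among all genes tested 4.19% did so. The median log2 fold change was 0.02 over all genes tested and -1.69 over these markers. Their summed level was 23411, 28108 and 27176 CPM in Bnc1+/+ and 7357, 12733 and 11188 CPM in Bnc1tr/tr, a ratio of 2.52 between the means; none was at 0. Most of this sum came from Cyp11a1 (means 10158 CPM in Bnc1+/+ and 3547 CPM in Bnc1tr/tr) and Hsd3b1 (8430 and 5114 CPM). The mutant ovaries followed the same order in the luteal sum, in these genes and in Cited4, lowest in replicate 1 and highest in replicate 2. Cited1 was highest in replicate 1 and lowest in replicate 2. Its mutant values lay close together, at 15.1, 13.4 and 14.2 CPM (SD 5.79% of the mean), so their order carries little weight. The luteal markers themselves differed in both size and order. Lhcgr, Sfrp4, Star and Ptgfr had wild-type to mutant ratios of 8.04, 5.83, 4.71 and 4.15, above the 4.08 of Cited1. Scarb1, Cyp11a1, Prlr, Akr1c18, Hsd3b1 and Parm1 had ratios from 3.63 down to 1.29, below that of Cited1. Among the mutant ovaries Lhcgr and Sfrp4 were highest in replicate 1, as was Cited1, but lowest in replicate 3. No other luteal marker was highest in replicate 1. In whole-ovary RNA, fewer luteal cells and less of a transcript per cell cannot be told apart. Nor can transcripts of these markers from other cell types be set apart from those of luteal cells. The part of the luteal difference in the Cited1 and Cited4 values was not tested.

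**Figure D3:**
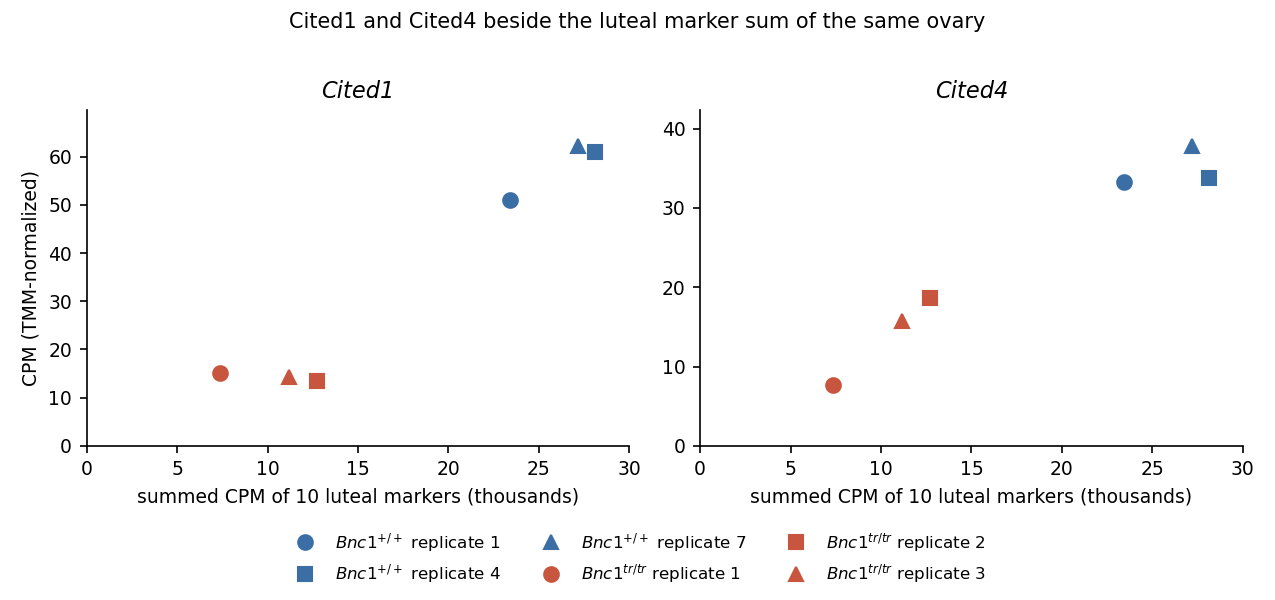
CPM of Cited1 (left) and Cited4 (right) in each ovary (y axis) against the summed CPM of 10 corpus luteum markers (x axis, divided by 1000), with Bnc1+/+ in blue and Bnc1tr/tr in red. Most of the sum comes from Cyp11a1 and Hsd3b1. Among the mutant ovaries Cited4 runs from 7.68 CPM at the lowest luteal sum to 18.7 CPM at the highest, while Cited1 stays between 13.4 and 15.1 CPM.

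The other marker lists differed in direction. Among all genes tested, 2.88% passed the edgeR threshold as higher in Bnc1tr/tr and 4.19% as lower. Granulosa markers summed to between 3653 and 4894 CPM in Bnc1+/+ and between 4155 and 6229 CPM in Bnc1tr/tr, with 1 of 10 past the threshold (higher). Oocyte markers summed to 562 to 728 CPM and 697 to 1062 CPM, with 3 of 10 higher. Of 6 endothelial markers 4 were lower and 1 higher, with sums of 504 to 683 CPM and 354 to 390 CPM. Of 5 adipose markers 1 was higher, with sums of 16.0 to 82.9 CPM and 34.1 to 296 CPM. Oviduct markers, from tissue that can stay attached to the ovary, summed to 46.0 to 172 CPM and 51.8 to 589 CPM, the highest being Bnc1tr/tr replicate 3. The sums of theca (180 to 287 and 196 to 544 CPM), surface epithelium (221 to 265 and 214 to 343 CPM), macrophage (260 to 280 and 175 to 331 CPM) and erythrocyte markers (125 to 206 and 61.4 to 226 CPM) overlapped between genotypes. In edgeR none of the 5 theca, 9 oviduct, 6 surface epithelium, 5 macrophage and 5 erythrocyte markers tested passed. Of these 2, 2, 1, 1 and 1 had an unadjusted p under 0.05, beside 4698 of all 19423 genes tested. DESeq2 called 2 of the theca and 1 of the oviduct markers and limma-voom none, beside 2420 and 1303 of all genes tested.

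The lists of genes that work with CITED and CBP/p300 were also chosen with earlier results of these data known, and their counts are a description. The factors by which HIF is built and degraded came first. None of the 10 tested passed in edgeR, beside 7.06% of all genes tested. Neither DESeq2 nor limma-voom called one, beside 2420 and 1303 of all 19423 genes tested. In a list this short, an absence of calls is near the background. None had an unadjusted p under 0.05 in edgeR, beside 4698 of all 19423 genes tested. The median log2 fold change was -0.06. Epas1, which encodes HIF-2α, was at 211 CPM in Bnc1+/+ and 213 CPM in Bnc1tr/tr (group means, n = 3 each). Arnt2, a dimer partner, was at 101 and 110 CPM and Egln2, a prolyl hydroxylase that marks HIF for degradation, at 111 and 98.0 CPM.

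Of 20 HIF target genes, 3 were lower in Bnc1tr/tr in the edgeR quasi-likelihood fit, adjusted by Benjamini-Hochberg over all genes tested, and none higher, beside 7.06% of all genes in either direction; the list median was -0.06. DESeq2 called 4 of the 20 and limma-voom 2, beside 2420 and 1303 of all 19423 genes tested. The clearest was Vegfa, the main growth factor of blood vessels. It had 248, 342 and 261 CPM in Bnc1+/+ and 148, 141 and 158 CPM in Bnc1tr/tr, so that every mutant ovary lay below every wild-type ovary. Its log2 fold change was -0.93 (SE 0.13; edgeR adjusted p = 0.00795), and it passed under all 12 alternatives, with adjusted p from 1.13e-08 to 0.029.

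Slc2a1, the glucose transporter GLUT1, had 41.2, 47.7 and 64.4 CPM in Bnc1+/+ and 32.4, 31.2 and 31.9 CPM in Bnc1tr/tr, without overlap (log2 fold change -0.68, SE 0.16; edgeR adjusted p = 0.0431). Aldoa, an aldolase of glycolysis, had 1434, 1551 and 1176 CPM in Bnc1+/+ and 814, 974 and 1001 CPM in Bnc1tr/tr (log2 fold change -0.58, SE 0.13; edgeR adjusted p = 0.0443). Both kept their sign throughout but missed the threshold in 7 of 12 alternatives, with adjusted p as high as 0.13 for Slc2a1 and 0.167 for Aldoa. Among the refits without 1 ovary, Slc2a1 passed only without Bnc1+/+ replicate 1 and Aldoa only without Bnc1+/+ replicate 7. The luteal and endothelial marker sums above were lower in the same mutant ovaries, and their part in the values of these 3 targets was not tested. Ldha, the abundant lactate dehydrogenase, was at 483 and 526 CPM (edgeR adjusted p = 0.562).

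The DNA-binding factors with which CITED proteins are known to act held the largest fold changes of the partner lists, towards higher values. Of 14 tested, 3 were called higher in Bnc1tr/tr and none lower, beside 2.88% of all genes tested that were higher. The median log2 fold change was 0.56. Both values include Tfap2a and Tfap2b, which passed the filter only through the mutant ovaries, and are no support for the list. DESeq2 called 6 of the 14 and limma-voom 3, beside 2420 and 1303 of all 19423 genes tested. In edgeR 7 had an unadjusted p under 0.05, beside 4698 of all 19423. The 3 called in edgeR were Tfap2a, Tfap2b and Tfap2c, all of the AP-2 family, for which CITED2 and CITED4 are co-activators, and all at low levels. Tfap2a had 5, 7 and 6 counts in Bnc1+/+ and 60, 27 and 43 counts in Bnc1tr/tr, or 0.186, 0.211 and 0.207 against 2.13, 1.04 and 1.52 CPM. The mutant ovaries were each several times above the wild-type ovaries (log2 fold change 2.93, SE 0.38; edgeR adjusted p = 0.00571, 0.00191 with no filter on low counts, and at most 0.0462 under the 11 alternatives that gave a value).

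Tfap2c had 27, 16 and 14 counts in Bnc1+/+ and 90, 64 and 79 counts in Bnc1tr/tr (log2 fold change 2.11, SE 0.34; edgeR adjusted p = 0.0137). It missed the threshold without Bnc1+/+ replicate 4 or without replicate 7, with an adjusted p of up to 0.0849. Tfap2b had only 1, 1 and 2 counts in Bnc1+/+ and 13, 11 and 11 counts in Bnc1tr/tr, a ratio of 9.44 whose 95% interval, covering counting error only, ran from 3.38 to 36.6. Its edgeR adjusted p was 0.00963, with 0.0126 where no filter on low counts was applied and 0.0748 without Bnc1+/+ replicate 4. Tfap2a and Tfap2b reached the count filter only through the mutant ovaries, in which they are high, and a minimum of 10 counts in every ovary removed both, so their calls are no support for the list. Tfap2c passed that minimum, with an edgeR adjusted p of 0.0111. The fourth family member tested, Tfap2e, was at 7.27 CPM in Bnc1+/+ and 12.3 CPM in Bnc1tr/tr (edgeR adjusted p = 0.0996), and Tfap2d had too few counts for the filter. The oocyte genes Gdf9, Bmp15 and Oosp1 were the 3 oocyte markers that were higher in Bnc1tr/tr, and the part of oocyte, oviduct or other markers in the AP-2 values was not tested.

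**Figure D4:**
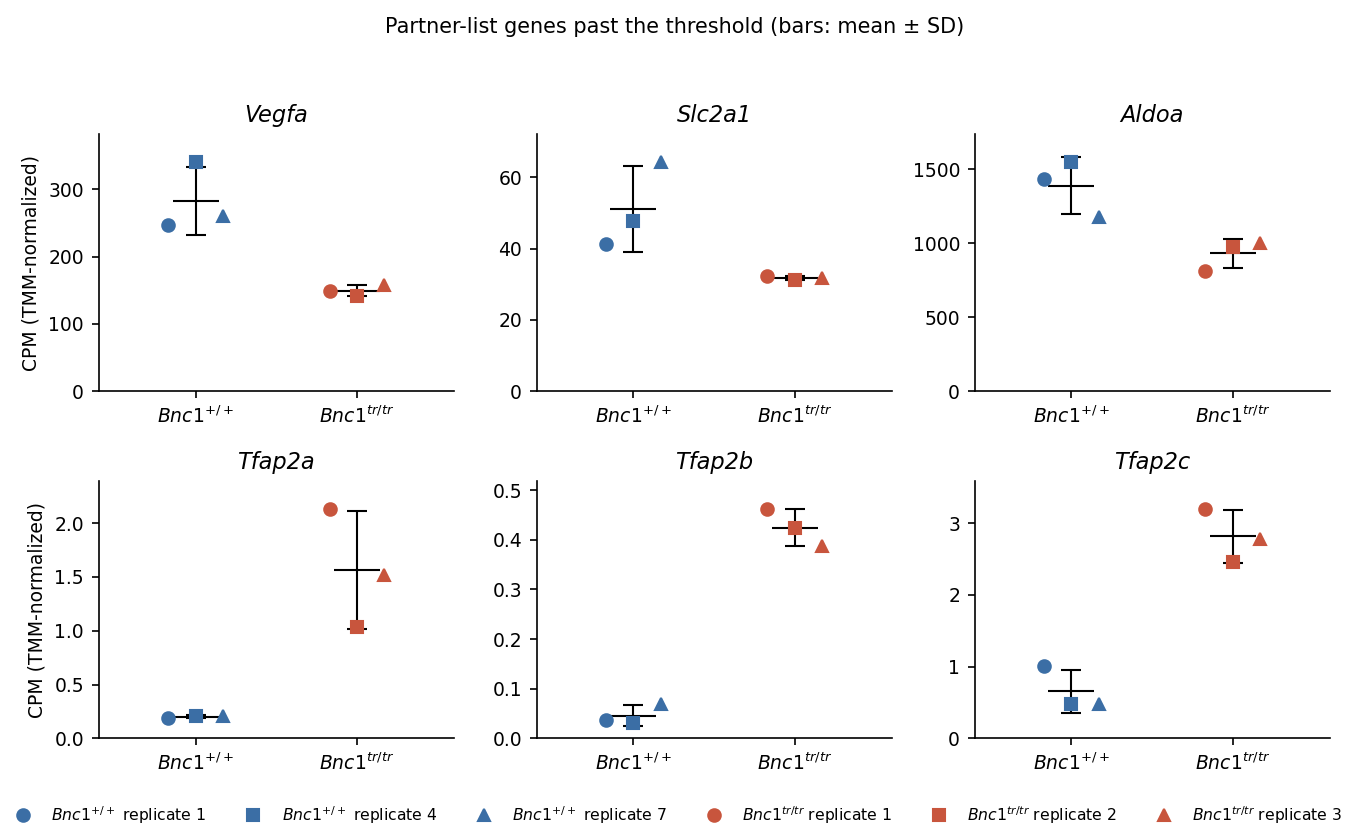
CPM in each ovary (y axes from 0, with a scale of their own) of the 6 partner genes past the threshold, in Bnc1+/+ (blue) and Bnc1tr/tr ovaries (red), with mean ± SD in black. The upper row (Vegfa, Slc2a1, Aldoa) is lower and the lower row (Tfap2a, Tfap2b, Tfap2c) higher in all 3 mutant ovaries, the lower row on scales that end near 0.5 to 3.5 CPM.

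The more abundant factors of that list did not pass. Nr5a1, the steroidogenic factor with which Cited2 works in the gonad, was at 356 CPM in Bnc1+/+ and 347 CPM in Bnc1tr/tr (group means, n = 3 each; edgeR adjusted p = 0.859). Esr2, the oestrogen receptor of granulosa cells, was at 146 and 236 CPM without overlap between the groups (edgeR adjusted p = 0.102, from 0.015 to 0.297 over 12 alternatives), and Smad4 at 131 and 139 CPM (edgeR adjusted p = 0.757).

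The CREB factors and their coactivators, the other acetyltransferases and the deacetylases that oppose them gave no calls in edgeR. Of all genes tested 7.06% were called there. Of 9 CREB genes 2, of 12 acetyltransferases and nuclear receptor coactivators 3 and of 11 histone deacetylases 3 had an unadjusted p under 0.05. Among all 19423 genes tested 4698 had such a p in edgeR, so these counts are near the background. DESeq2 called 1, 0 and 1 of them and limma-voom none, beside 2420 and 1303 of all genes tested. The median log2 fold changes were 0.19, 0.04 and 0.05. Creb3, a factor anchored in the endoplasmic reticulum, was at 100 CPM in Bnc1+/+ and 73.4 CPM in Bnc1tr/tr without overlap (edgeR adjusted p = 0.0732, from 0.0182 to 0.218 over the alternatives), while the CREB coactivator genes Crtc1 and Crtc3 were at 80.4 and 94.6 CPM and at 79.0 and 90.5 CPM. Among acetyltransferases and coactivators, Kat2a was at 155 and 164 CPM, Carm1 at 119 and 124 CPM and Kat7 at 107 and 109 CPM. Among deacetylases, Hdac5 was at 158 and 173 CPM, Hdac3 at 113 and 96.0 CPM and Hdac7 at 96.8 and 87.9 CPM.

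**Figure D5:**
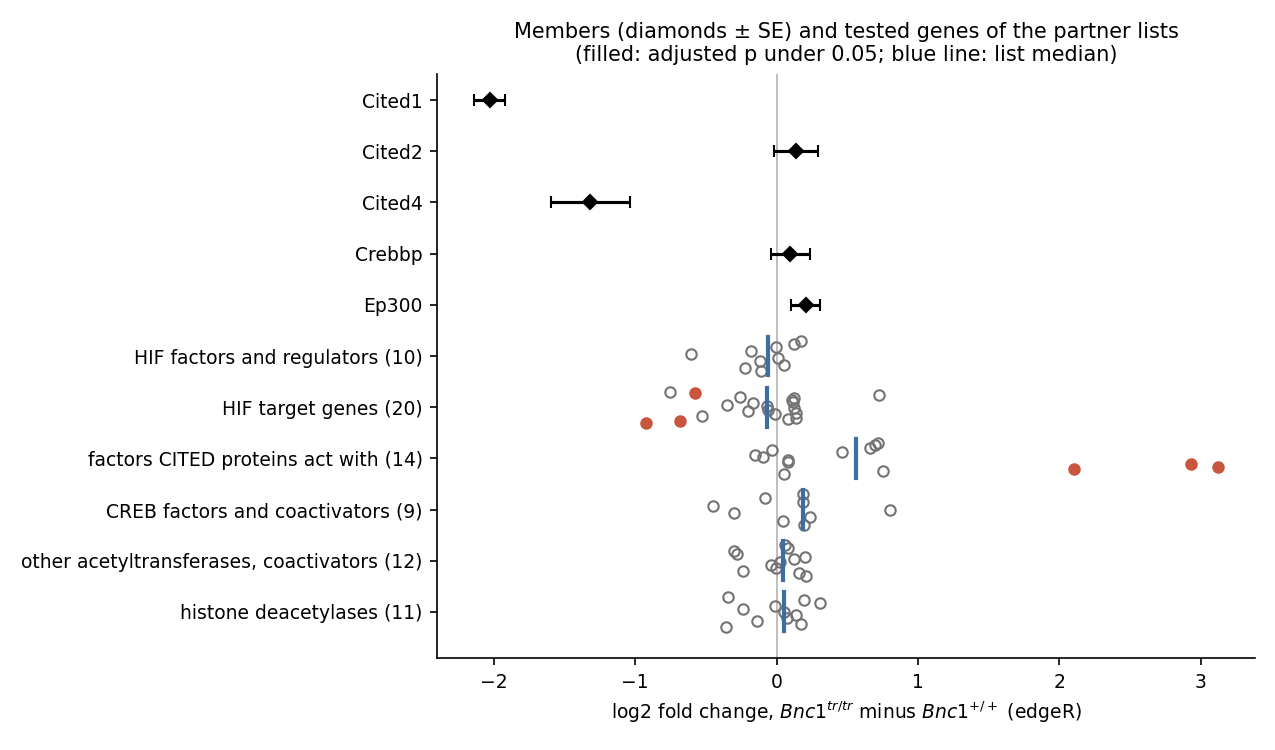
Fitted log2 fold change of Bnc1tr/tr over Bnc1+/+ (x axis) for the 5 members (diamonds with SE) and for each tested gene of 6 partner lists (circles; number tested in parentheses), filled where the edgeR adjusted p was under 0.05, with the list median as a blue line. Cited1 at -2.03 and Cited4 at -1.32 lie left of every partner gene, and Tfap2a, Tfap2b and Tfap2c lie to the right at 2.11 to 3.12.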

How the data were processed

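Whole-ovary RNA (TRIzol) was sequenced from 1 end on an Ion Proton instrument after preparation with the Ion Total RNA-Seq kit. The table that the authors deposited gives unnormalized read counts for 44788 gene symbols in each ovary. The submitters' processing notes name the builds mm10 and Sscrofa10.2, and the coordinates given here are those of mm10 (GRCm38) in GENCODE M21. The aligner, the counting tool, the annotation and whether reads were counted by strand are not given in the sources used here. Totals ran from 25247770 to 34406296 counts, and no 2 libraries of the same genotype agreed within sampling noise.

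The 5 members and all gene lists were chosen with earlier results of these data known. Genes with too few counts were removed with filterByExpr (minimum count 10), libraries were scaled by TMM, and the genotypes were compared with edgeR 4.0.16 (quasi-likelihood test, two-sided; R 4.3.3), adjusting by Benjamini-Hochberg over 19423 genes, with 0.05 as threshold. Of these, 1372 were called, 559 higher and 813 lower in Bnc1tr/tr. The design had no covariate. Alternatives were DESeq2 size factors, library size only, no filter, a minimum of 10 counts in every ovary, DESeq2 1.42.0, limma-voom (limma 3.58.1) and leaving out each ovary. Named partner genes were those called and the 3 highest by mean CPM of each list; the 3 closest profiles were named per member, and genes beside the members on the chromosome were added after their values were seen. A few genes that these rules name are not reported here. Oocyte libraries were not analysed here.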

Additional observations from a re-analysis of the deposited data

How the results depend on the processing

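The number of genes called moved from 1372 to 2420 with DESeq2 (1080 higher and 1340 lower, against 559 and 813) and to between 320 and 1282 when 1 ovary was left out, lowest without Bnc1+/+ replicate 4 (higher: 94 to 620; lower: 226 to 662). With library size only, 1112 genes were higher and 616 lower, so that 35.65% of calls were lower against 59.26%, and the median log2 fold change of all genes stood at 0.118 against 0.018. The fitted values of the 5 members moved by less than the spread between ovaries under all 12 alternatives, at -2.12 to -1.93 for Cited1, -0.05 to 0.28 for Cited2, -1.58 to -1.02 for Cited4, -0.08 to 0.21 for Crebbp and 0.12 to 0.31 for Ep300. Of 466 values of other named genes, 440 stayed on the same side of the threshold, 24 lost a call and 2 gained one. The alternatives for profile and chromosome neighbours and Bnc1 were chosen after seeing the data. The paper states that littermates were compared, but the litter behind each library is not given in the sources used here. No paired analysis was therefore possible. With 3 ovaries each, genes of few counts, such as the AP-2 genes, are limited by depth.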

Other observations

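Genes beside Cited1 and Cited4 on their chromosomes were examined for comparison. Cited1 is flanked by Rps4x, a ribosomal protein gene, and Hdac8, a histone deacetylase gene. Rps4x was at 314 ± 38.9 CPM in Bnc1+/+ and 350 ± 20.7 CPM in Bnc1tr/tr (SD, n = 3 each; log2 fold change 0.16, SE 0.11, edgeR adjusted p = 0.431). Hdac8 was at 13.3 ± 0.939 and 15.0 ± 1.19 CPM (log2 fold change 0.17, SE 0.11, edgeR adjusted p = 0.395). Beside Cited4 lies Ctps, which encodes a CTP synthase. Ctps was at 98.1 ± 10.3 and 87.3 ± 7.72 CPM (log2 fold change -0.17, SE 0.11, edgeR adjusted p = 0.382). These neighbours were added after the values of the members were seen.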
